A study of Mus musculus with 27 samples.

Results

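The *Hox* genes were examined in mouse embryonic fibroblasts (MEFs), connective tissue cells grown out of embryos and kept in culture. Every gene whose symbol named 1 of the 4 *Hox* clusters (A, B, C or D) followed by a paralog number was taken, which gave 39 of the 37310 genes in the table. The choice used the name alone and no measured value. Because *Hoxa3* was listed under 2 identifiers, the 39 genes filled 40 rows.

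*Hox* genes encode homeodomain transcription factors, which bind DNA and give cells their position along the axis from head to tail. Genes of low paralog number lie at 1 end of each cluster and are used toward the head, and genes of high number lie at the other end and are used toward the tail and in the outer limb. Genes with the same number in different clusters are paralogs, related by ancient copying of a whole cluster. Fibroblasts are known to keep in culture a *Hox* pattern of the body site they came from.

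The 12 libraries were RNA-seq of total RNA (Illumina TruSeq kit) from 4 groups of 3: female wild-type, female *Firre* KO, male wild-type and male *Firre* KO MEFs. The KO cells carried a deletion of the whole *Firre* locus on chromosome X, made by recombination between loxP sites, which also took away its promoter. *Firre* is a long non-coding RNA gene. The fibroblasts were grown from single mid-gestation embryos after the head, limbs and inner organs had been removed, and were thawed from low-passage stocks. The labels do not say whether the 3 replicates of a group came from different embryos, so the p-values measure the spread between these libraries, which may be technical. Sex, embryo line and depth cannot be told apart, since every male library was sequenced more deeply than every female library.

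The totals ran from 42986516 to 65454660 expected counts per library, of which *Hox* rows took 0.0214% to 0.0341%. The 6 KO libraries each held 0 expected counts of *Firre*, in keeping with their labels, and the wild-type ones held 91, 90 and 129 (female) and 287, 307 and 239 (male). The summed level of 10 fibroblast markers was 9895 to 13336 on the counts-per-million (CPM) scale. Most of it came from *Vim*, *Col1a1* and *Col1a2*, while *Fap* had 2.42 to 6.74, *Dcn* 3.93 to 22.5 and *Pdgfra* 7.13 to 56.1. The caudal regulators *Cdx1*, *Cdx2* and *Cdx4* were at 0 in all 12 libraries. In bulk RNA, fewer cells of a type and less RNA per cell cannot be told apart.

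In the mm9 build that the files use, cluster A lay on chromosome 6 from 52105366 to 52210874 and held 11 genes. Cluster B lay on chromosome 11 from 96055630 to 96229570 with 10 genes, cluster C on chromosome 15 from 102751534 to 102867274 with 9, and cluster D on chromosome 2 from 74506367 to 74603200 with 9. Promoter windows from RefSeq (GRCm38.p6, from 250 bases before to 50 after a gene's start) were found for 22 of the 39 symbols, in 24 windows. Most of these ran over exons of the mm9 annotation. The stretches printed are the 150 bases just before the RefSeq start of 4 of the genes where they did not. *Hoxb8* stands for the central genes that moved together between libraries, *Hoxa13* and *Hoxd13* for the posterior genes that moved against them, and *Hoxd8* for the highest gene of cluster D. Each stretch matched once in its mm9 chromosome. By the mm9 annotation the *Hoxd13* stretch ends 85 bases short of the gene, and the others end directly before theirs. Capitals mark matches to TTTATNG (the letters bound by Cdx proteins) or to TATAAA (the TATA box), searched on both strands. In *Hoxb8* the second capital run holds both, overlapping, and in *Hoxd13* the capital run is a TATAAA match on each strand. All are written from 5′ to 3′ on the strand of the gene.
Hoxb8, chr11:96143069-96143218, plus strand, intergenic: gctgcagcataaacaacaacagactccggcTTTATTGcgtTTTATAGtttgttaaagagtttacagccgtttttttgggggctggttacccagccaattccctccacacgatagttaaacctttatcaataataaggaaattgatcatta
Hoxd8, chr2:74542522-74542671, plus strand, in an intron of 1700109F18Rik: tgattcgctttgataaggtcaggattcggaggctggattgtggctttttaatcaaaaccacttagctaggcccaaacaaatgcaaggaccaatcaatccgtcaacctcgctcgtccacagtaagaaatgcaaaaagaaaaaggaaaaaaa
Hoxa13, chr6:52210875-52211024, minus strand, intergenic: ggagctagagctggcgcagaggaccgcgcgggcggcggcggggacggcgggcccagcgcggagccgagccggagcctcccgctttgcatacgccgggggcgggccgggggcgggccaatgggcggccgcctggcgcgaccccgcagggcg
Hoxd13, chr2:74506132-74506281, plus strand, intergenic: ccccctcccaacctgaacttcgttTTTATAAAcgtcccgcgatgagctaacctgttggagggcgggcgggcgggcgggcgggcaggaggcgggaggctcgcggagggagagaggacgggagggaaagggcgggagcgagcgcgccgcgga

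The windows of *Hoxa13* and *Hoxd13* were rich in G and C, at 81.0% and 74.3%, against 42.3% for *Hoxb8* and 46.7% for *Hoxd8*. These 4 do not stand for their classes in this respect, since the central *Hoxa5* and *Hoxa6* had 61.7% and 62.0% and the posterior *Hoxa11* and *Hoxd12* 51.0% and 55.0%. Over all 24 *Hox* windows the median was 57.7%, and it was 52.7% over 32851 windows of all genes. TTTATNG was found in 2 of 24 *Hox* windows (8.33%) and in 10.9% of all windows. TATAAA was found in 4 of 24 (16.7%) and in 13.6% of all. The joint Hox and Pbx letters TGATTNAT were found in 2 of 24 (8.33%, *Hoxa2* and *Hoxd11*) and in 3.22% of all. A match is a description of the letters and not a bound site.

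Levels differed widely along each of the 4 clusters. A gene was counted as expressed in a group when it reached at least 1 CPM per kilobase of exon (the level per length) in all 3 of its libraries. By this measure 23 of the 39 *Hox* genes were expressed in each of the 4 groups, and 21 of them were expressed in all 4. A further 4 were expressed in some groups: *Hoxa2* in male KO, *Hoxa3* in both male groups, *Hoxb5* in all but male KO, and *Hoxc11* in both female groups. These lay close to the limit. *Hoxa2* had group means of 1.06 to 1.31 where it missed, and *Hoxb5* missed in male KO replicate 3 at 0.917. *Hoxa3* was divided by merged exons of 6566 bases, and its longest transcript of 3095 bases would give higher levels. The other 14 reached it in no group. They were *Hoxa4*, which missed it narrowly with group means per length of 1.03 to 1.23, *Hoxa13*, *Hoxb1*, *Hoxb13*, *Hoxc12*, *Hoxc13* and every gene of cluster D except *Hoxd8*.

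**Figure D1:**
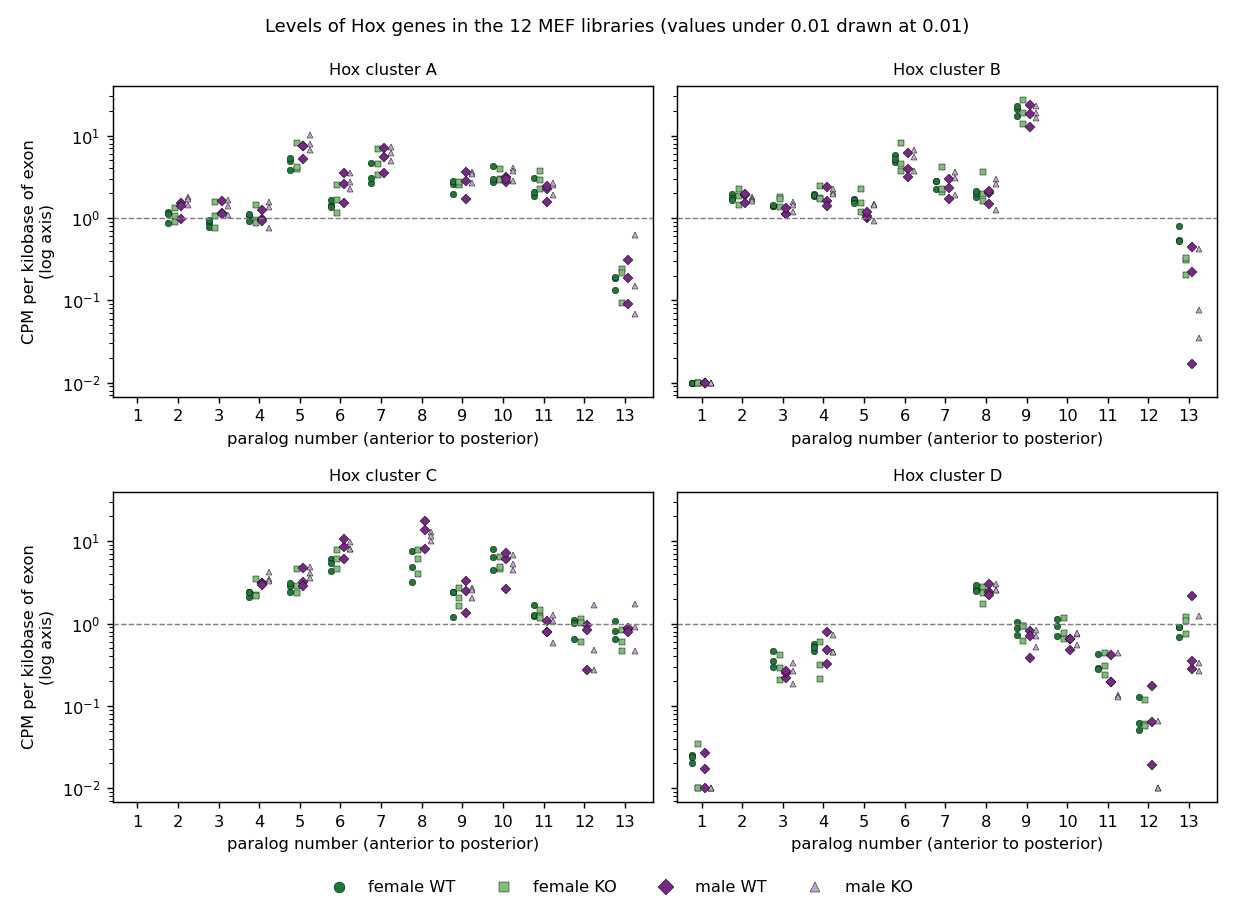
Levels of *Hox* genes in CPM per kilobase of exon (log axis) against paralog number, with 1 panel per cluster, 1 point per library and the 4 groups in colour and shape; the dashed line is at 1 and values under 0.01 are drawn at 0.01. *Hoxb9* is the highest gene in all 12 libraries, and in cluster D only *Hoxd8* stays above the line in every library.

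The most posterior gene expressed was *Hoxa11* in cluster A, *Hoxb9* in cluster B and *Hoxd8* in cluster D in all 4 groups. In cluster C it was *Hoxc11* in the female groups and *Hoxc10* in the male groups. These genes depended on the limit of 1. At 5 CPM per kilobase *Hoxb9* alone passed in the female groups, and in the male groups the last gene was *Hoxa5* in cluster A, *Hoxb9* in B and *Hoxc8* in C, with none in D. At 0.5 it was still *Hoxa11* in cluster A, and it was *Hoxb13* in female wild-type in cluster B, *Hoxc13* (wild-type), *Hoxc12* (female KO) or *Hoxc11* (male KO) in cluster C, and *Hoxd13* (female groups), *Hoxd8* (male wild-type) or *Hoxd10* (male KO) in cluster D. *Hoxa11*, a gene of the middle limb and the reproductive tract, had 4.99, 5.56 and 8.22 CPM in female wild-type, 6.09, 9.89 and 7.67 in female KO, 5.96, 6.62 and 4.20 in male wild-type and 6.75, 5.16 and 7.10 in male KO libraries, and the 4 groups overlapped. *Hoxa11* and the antisense gene *Hoxa11as* (1.01 to 3.33 CPM) share sequence, and no source used here says that the counts kept strand. *Hoxc11* had 2.48, 2.54 and 3.37 CPM in female wild-type, 2.47, 2.94 and 2.39 in female KO, 2.14, 1.58 and 1.61 in male wild-type and 2.20, 1.17 and 2.58 in male KO libraries. Its female wild-type libraries all lay above the male wild-type ones (log2 difference 0.65, SE 0.26, adjusted p = 0.0677, edgeR), while the KO groups overlapped. Its own levels lay close to the limit of 1 per length, at group means of 0.880 to 1.38.

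*Hoxb9*, used in the thorax, was the highest *Hox* gene per length in all 12 libraries. It had 44.0, 54.0 and 58.6 CPM in female wild-type, 69.0, 35.4 and 47.9 in female KO, 47.0, 32.6 and 60.6 in male wild-type and 59.3, 48.3 and 42.3 in male KO MEFs. Its group means per length were 20.3 ± 2.90, 19.7 ± 6.60, 18.2 ± 5.44 and 19.4 ± 3.35 in the same order (SD, n = 3), and the groups overlapped. Between *Hoxb9* and *Hoxb13* lies *Gm53*, which had 13.4 to 30.3 CPM. *Hoxb13*, a gene of the tail and prostate, had 0.0375 to 1.77 CPM.

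*Hoxa5*, which acts in the lung and the neck and upper chest skeleton, was the highest gene of cluster A in 10 of 12 libraries. Its CPM was 9.35, 9.90 and 7.25 in female wild-type, 15.1, 7.33 and 7.74 in female KO, 14.04, 9.68 and 13.9 in male wild-type and 19.0, 15.01 and 12.7 in male KO MEFs. The female KO library at 15.1 lay among the male values, and the female wild-type one at 9.90 lay above the male wild-type one at 9.68. The groups therefore overlapped. *Hoxc8*, a gene of the thorax and of brachial motor neurons, led cluster C in 8 of 12 libraries. *Hoxc10* led it in 2 female wild-type libraries and *Hoxc6* in 2 female KO libraries. *Hoxd8* led cluster D in all 12, with 7.20, 6.87 and 8.02 CPM in female wild-type, 4.71, 7.61 and 6.53 in female KO, 6.70, 6.10 and 8.38 in male wild-type and 6.99, 7.00 and 8.21 in male KO libraries. Female KO replicate 1 was the lowest of these, and the groups overlapped.

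Read by paralog number, the anterior genes (1 to 4) ranged from near 0 to moderate levels. *Hoxb2*, *Hoxb3* and *Hoxb4*, which pattern the hindbrain and neck, had group means per length of 1.18 to 2.09. *Hoxc4* was a little higher at 2.29 to 3.64. *Hoxd3* and *Hoxd4* were at 0.244 to 0.545. *Hoxb1*, a gene of the hindbrain, had 0 or 1 expected counts, and *Hoxd1* had 0 to 3. Where no read was counted, up to 3 counts remain possible from counting error alone, or 0.0463 to 0.0701 CPM in these libraries.

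The central genes (5 to 8), which pattern the thorax, took 35.7% to 51.0% of the summed level per length of all *Hox* genes in a library. Genes of paralog 9 and 10, used at the thoracic and lumbar levels, took 27.4% to 41.7%. Anterior genes took 12.5% to 17.4%, and the posterior genes (11 to 13), used in the tail, the outer limb and the urogenital tract, 3.31% to 11.3%. By cluster, A took 23.6% to 29.8%, B 27.8% to 41.9%, C 25.4% to 38.5% and D 3.72% to 9.19%. The sum itself ran from 80.8 in male wild-type replicate 2 to 131 in male KO replicate 1.

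*Hox* genes varied more between replicates of 1 group than most genes of their abundance. In edgeR the dispersion of a gene measures the spread of its counts between replicates beyond counting error, and the trend is the value usual for its abundance. The ratio of the 2 had a median of 2.34 over the 38 tested *Hox* rows and of 0.552 over all 15387 genes tested. It was above 1 in 29 of 38 *Hox* rows (76.3%), against 25.0% of all genes. On the scale of log2(CPM + 1), the median SD within a group was 0.281 for *Hox* rows and 0.0887 for all genes. These are descriptions with no test. A list of other position genes of the limb had a median ratio of 3.21, a list for the head 3.26, and a list for the body axis 2.17. The TALE cofactors, the Pbx, Meis and Pknox proteins that bind DNA together with Hox proteins, had 0.445.

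**Figure D2:**
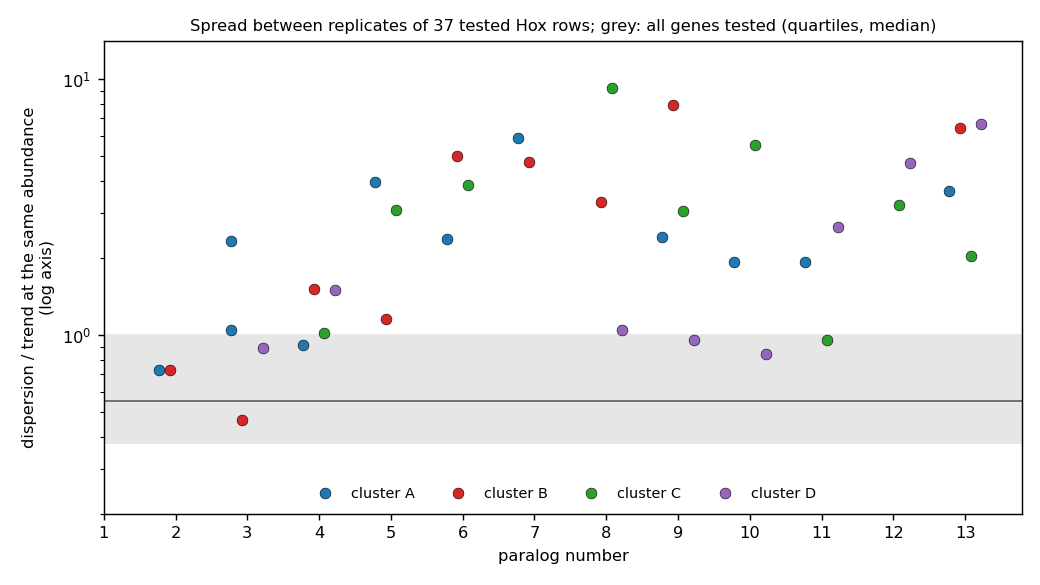
Spread between replicates, as dispersion divided by the trend at the same abundance (log axis), against paralog number for 37 tested *Hox* rows, coloured by cluster; the grey band spans the quartiles of all genes tested and the line is their median of 0.552. All 11 central genes (5 to 8) lie above 1, and *Hoxb3* at 0.466 is the lowest.

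The ratio differed along the paralog numbers. The median ratio was 0.914 for the anterior genes, 3.84 for the central genes, 2.41 for paralogs 9 and 10, and 3.22 for the posterior genes, and it was above 1 in 11 of 11 central genes. *Hoxc8* had the highest ratio at 9.19, followed by *Hoxb9* at 7.93, *Hoxd13* at 6.63 and *Hoxb13* at 6.40. The lowest was *Hoxb3* at 0.466. Without male wild-type replicate 2 and male KO replicate 3, a choice made after their posterior genes were seen, the median over *Hox* rows was 1.52 and that over all genes 0.588, and the ratio was above 1 in 30 rows (78.9%). Leaving out female KO replicate 1 as well gave 1.29 against 0.620, with 24 rows (63.2%) above 1. The order of the classes changed with these libraries. The posterior median was 1.25 without the first pair, and without all 3 it was 0.855 for the anterior genes, 1.34 for the central genes (8 of 11 above 1), 2.66 for paralogs 9 and 10 and 1.30 for the posterior genes.

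*Hoxd13*, which forms the digits and the genital bud, had the largest SD of all, 0.542 averaged over the groups. It had 1.68, 2.23 and 2.26 CPM in female wild-type, 1.86, 2.96 and 2.65 in female KO, 0.692, 5.36 and 0.881 in male wild-type, and 0.660, 0.833 and 3.04 in male KO MEFs. A single library of each male group stood far above its other two, while the female groups were close together. *Hoxb13* went the same way in the males, with 29, 61 and 2 expected counts in wild-type and 10, 5 and 48 in KO libraries. *Hoxa13*, which acts with *Hoxd13* in the digits, had 27, 47 and 12 counts in male wild-type and 22, 11 and 81 in male KO libraries. Male wild-type replicate 2 and male KO replicate 3 were thus the highest of their groups for all 3 genes.

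The deviation of each library from the mean of its group on the log2(CPM + 1) scale shows which libraries moved. Male KO replicate 3 was the highest of its group in 9 of 9 posterior genes, by a median of 0.65, and the lowest in 8 of 11 central genes, by a median of −0.26. Male wild-type replicate 2 was the highest in 7 of 9 posterior genes and the lowest in 10 of 11 central genes, with medians of 0.26 and −0.37. Female KO replicate 1 stood the other way round, highest in 10 of 11 central genes (median 0.51) and lowest in 6 of 9 posterior genes (median −0.24). Other libraries of these groups lay opposite to them. Female KO replicate 2 was lowest in 9 of 11 central genes (−0.37) and highest in 7 of 9 posterior genes (0.16). Male wild-type replicate 3 was highest in 8 of 11 central genes (0.23) and lowest in 6 of 9 posterior genes (−0.26).

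**Figure D3:**
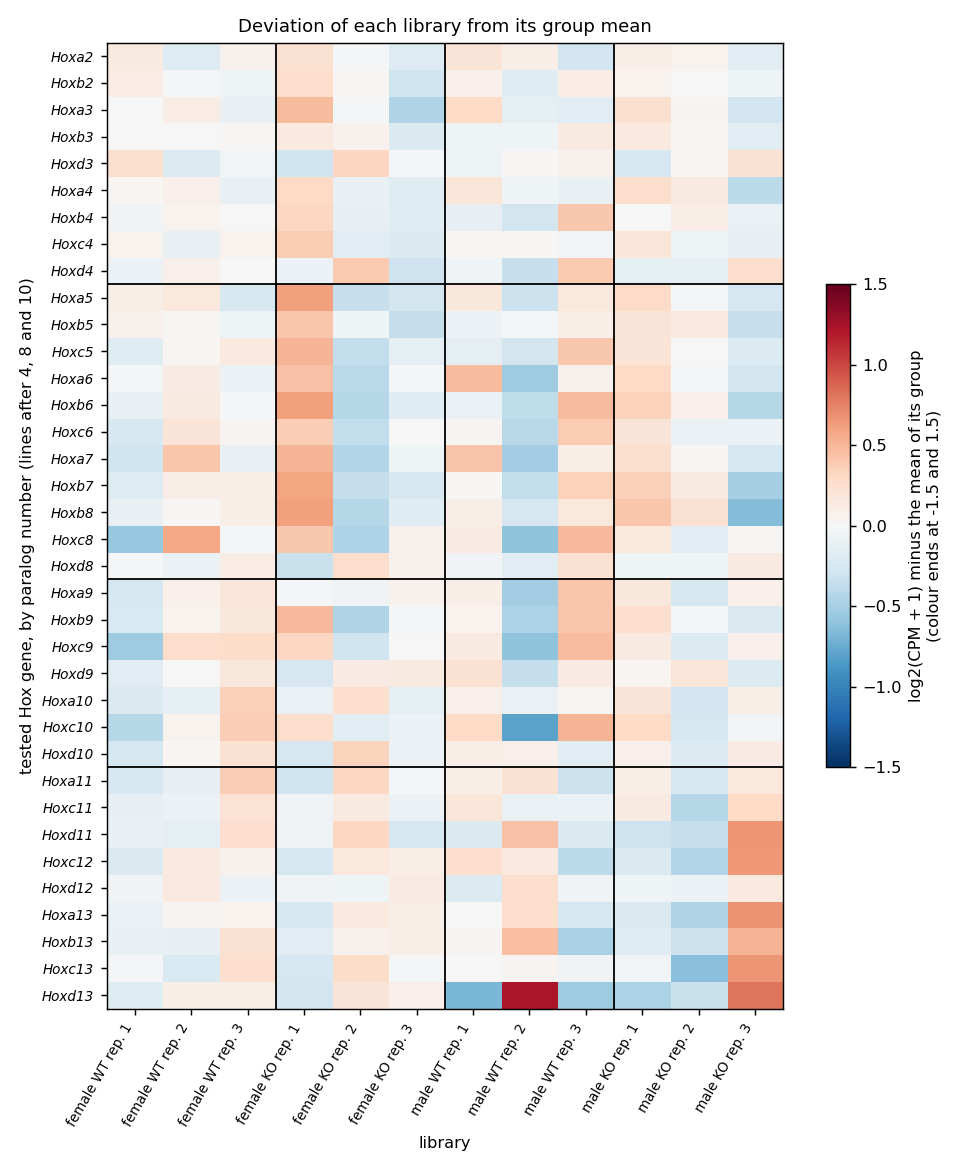
Deviation of each library from the mean of its group on the log2(CPM + 1) scale (colour, red above and blue below) for 36 *Hox* genes ordered by paralog number (rows, with lines after paralogs 4, 8 and 10) in the 12 libraries (columns, with lines between groups). Male KO replicate 3 is red over all 9 posterior genes, and female KO replicate 1 is red over 10 of 11 central genes.

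Across the 12 libraries, most central genes deviated together and against posterior genes. *Hoxd8* was an exception, at −0.33 in female KO replicate 1 and 0.14 in male KO replicate 3, and 10 of the 55 central pairs were negative. The median correlation of deviations was 0.757 over the 55 pairs of central genes and 0.671 over the 36 pairs of posterior genes. It was −0.500 between central and posterior genes, and 89 of these 99 pairs were negative. It was 0.088 over all 666 *Hox* pairs and −0.001 over all pairs of tested genes. The 12 values share library, depth and group mean, and no p is given. Without male wild-type replicate 2 and male KO replicate 3 the medians were 0.721, 0.511 and −0.325. Without female KO replicate 1 as well they were 0.328, 0.389 and 0.066, with 45 of 99 pairs negative. The opposition of central and posterior genes was thus not seen without these 3 libraries. They were picked after showing it, and no other set was left out of the correlations. The loss therefore cannot show that the opposition rested on them alone.

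Neighbouring genes were alike in their deviations, with a median of 0.699 over 33 neighbour pairs. Of these, 25 were above 0.5, against 14.1% of all pairs of tested genes. The highest neighbour pairs were *Hoxb6* with *Hoxb7* at 0.974 and *Hoxb7* with *Hoxb8* at 0.958. *Hoxb7* and *Hoxb8* overlap in the annotation, and reads of overlapping genes could have been split between them. *Hoxb9* with *Hoxb13*, across the widest gap of cluster B, was the lowest at −0.610. Genes of 1 paralog number on different chromosomes had a median of 0.629 over 39 pairs. Pairs in different clusters were about as alike as neighbours among the central genes (median 0.698) and the posterior genes (0.664). Neighbour values were not worked out with libraries left out.

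Levels of genes of other cell types and body sites in these 3 libraries are given beside this pattern, and their part in it was not tested. The summed limb list was 305 CPM in male wild-type replicate 2 against 194 and 142 in the other two, 158 in male KO replicate 3 against 207 and 214, and 112 in female KO replicate 1 against 148 and 144. *Grem1*, a limb bud gene, made most of the male difference, and without it the limb sums were 40.3 against 39.1 and 40.4 in male wild-type and 43.0 against 48.4 and 47.8 in male KO. In female KO replicate 1 the sum without *Grem1* was 35.6 against 53.1 and 58.1, still the lowest of its group. The summed cartilage list was 426 against 228 and 76.6, 175 against 320 and 495, and 394 against 220 and 251 in the same 3 libraries, and most of it was the collagen gene *Col2a1*. Without *Col2a1* the cartilage sum was the highest of its group in all 3, at 34.7 against 20.4 and 17.1, 31.7 against 19.3 and 23.3, and 39.9 against 15.9 and 15.2. The epithelium list was 16.5 in male KO replicate 3 against 7.43 and 6.91, and 6.41 in male wild-type replicate 2 against 9.32 and 14.1. The neural list was the lowest of its group in both male libraries, at 483 against 636 and 522 and at 465 against 550 and 526, and the highest in female KO replicate 1, at 824 against 615 and 776. The muscle list was also the lowest in both male libraries, at 107 against 130 and 148 and at 83.1 against 117 and 99.5. *Nes* made most of the neural sums, at 408 to 744 CPM over the libraries, and *Acta1* much of the muscle sums, at 53.0 to 113. Neither list was summed without its highest gene. The limb ridge marker *Fgf8* was at 0 in 10 of 12 libraries.

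The comparison of *Firre* KO with wild-type MEFs asks whether loss of the locus was accompanied by changes in these developmental genes. No *Hox* gene was called in either sex. A gene was called where edgeR's quasi-likelihood test gave it a Benjamini-Hochberg adjusted p under 0.01, over all genes tested, and its log2 fold change exceeded 1 either way. It was met by 0 of 38 *Hox* rows in female MEFs and 0.00650% of all genes, and by 0 of 38 and 0.00650% in male MEFs. Averaged over the sexes it was 0 against 0.00650%, and for the female minus the male effect of the deletion 0 against 0.00%. At an unadjusted p under 0.05 there were 0 *Hox* rows in females (7.55% of all genes), 0 in males (2.06%), 1 in the average (6.24%) and 0 in the difference (3.19%). DESeq2 gave the same counts, 0 called and 0, 0, 1 and 0 at the unadjusted limit. The 1 row was *Hoxb3* (log2 fold change 0.23, SE 0.10, adjusted p = 0.780, edgeR). The smallest adjusted p of a *Hox* row was 0.741 in females and 1 in males.

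The interval around each *Hox* fold change was wide. The median 95% interval reached 0.61 on either side of the log2 fold change in both sexes for *Hox* rows, and 0.22 for all genes. The whole interval lay within a 2-fold change either way in 27 of 38 *Hox* rows in females and 29 of 38 in males, against 83.9% and 85.4% of all genes. Changes smaller than these intervals were not detectable with 3 libraries a group. For *Hoxb9* the log2 fold change was −0.04 (95% interval −0.60 to 0.52) in females and 0.10 (−0.46 to 0.65) in males.

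**Figure D4:**
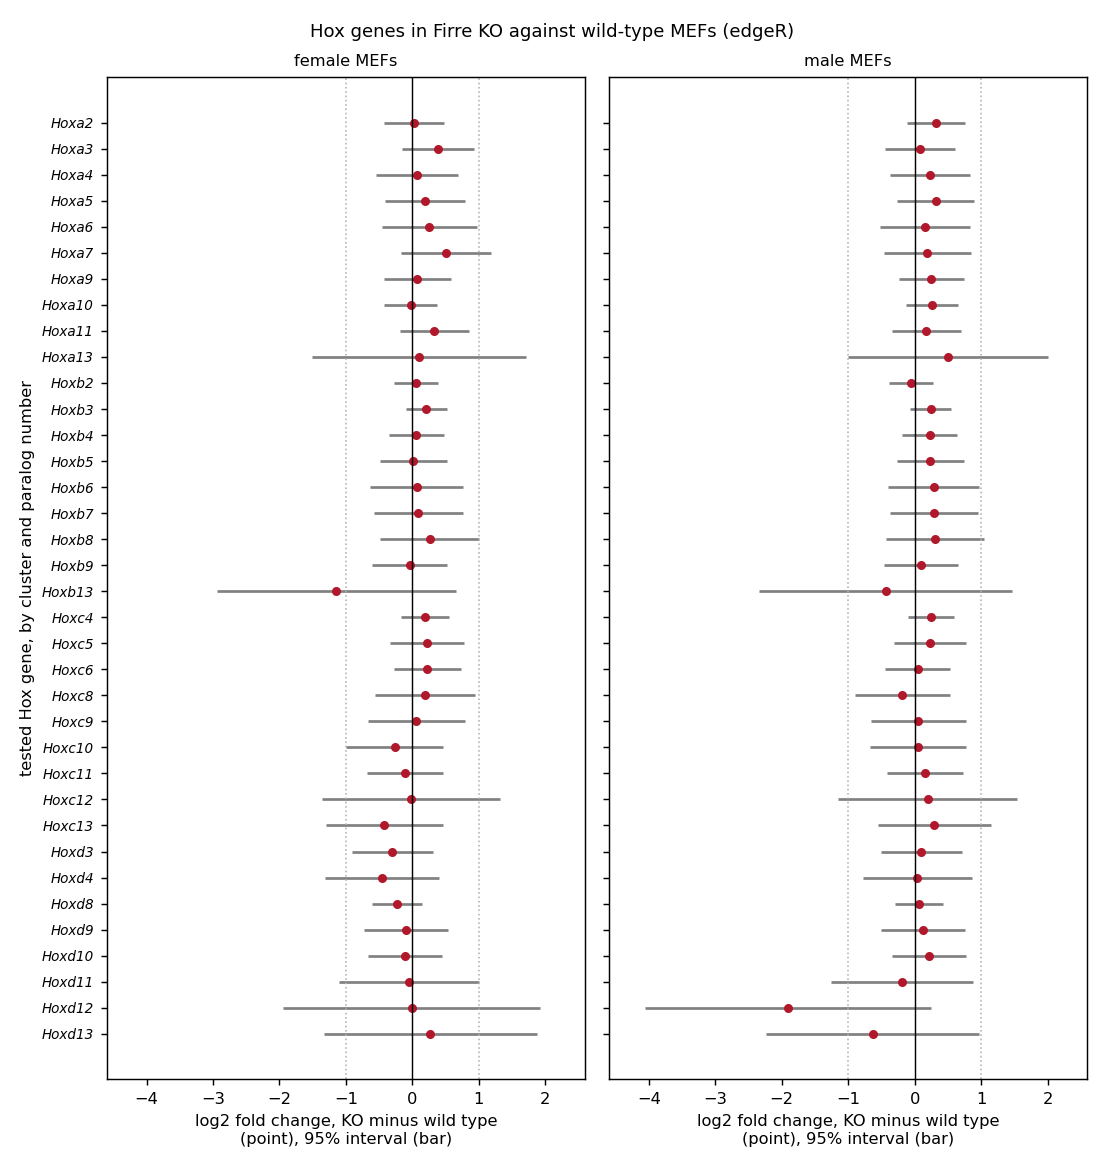
Log2 fold change of 36 *Hox* genes in *Firre* KO against wild-type MEFs (points) with 95% intervals (bars) from edgeR, in female (left) and male (right) MEFs, ordered by cluster and paralog number; dotted lines mark a log2 fold change of 1 either way. No gene was called. *Hoxb13* in females and *Hoxd12* in males have the lowest values, −1.15 and −1.91, with wide intervals.

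In female MEFs the highest value was that of *Hoxa7*, a thoracic gene, with 7.65, 13.2 and 8.88 CPM in wild-type and 19.6, 9.67 and 12.9 in KO libraries. The groups overlapped, and the log2 fold change was 0.50 (SE 0.31, adjusted p = 0.741, edgeR). Without female KO replicate 1 it was 0.19. The lowest was that of *Hoxb13*, with 51, 53 and 94 expected counts in wild-type and 20, 32 and 33 in KO libraries. All 3 KO libraries lay below the wild-type ones, and the log2 fold change was −1.15 (SE 0.82, adjusted p = 0.772, edgeR). It was the single *Hox* row whose female groups did not overlap, against 19.2% of all genes. The epithelium list lay lower in the same comparison, with 7 of 7 markers below 0, a median of −1.22, 0 called and summed levels of 23.4 to 26.6 CPM in KO against 27.3 to 71.1 in wild-type, and its part in the *Hoxb13* values was not tested.

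In male MEFs the highest value was that of *Hoxa13* (counts above), at 0.50 (SE 0.69, adjusted p = 1, edgeR). It rested on male KO replicate 3, without which it was −0.84. The lowest was that of *Hoxd12*, a gene of the digits, with 3, 28 and 9 expected counts in wild-type and 1, 0 and 9 in KO libraries. Its log2 fold change was −1.91 (SE 0.98, adjusted p = 1, edgeR), between −4.45 without male KO replicate 3 and −0.86 without male wild-type replicate 2, and its groups overlapped. *Hoxc4* was the single *Hox* row whose male groups did not overlap, against 5.30% of all genes. It had 7.998, 7.92 and 7.59 CPM in male wild-type and 10.7, 8.85 and 8.40 in male KO libraries.

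Of 38 *Hox* rows, 32 were above 0 and 6 below in male MEFs, with a median of 0.17, while 47.7% of all genes were above 0 and their median was −0.004. The axial and somite list moved the same way in males, with 7 of 8 tested genes above 0, a median of 0.73 and 0 called. Its summed levels were 27.8 to 29.9 CPM in KO against 21.9 to 23.2 in wild-type. The epithelium (6 of 7, median 0.43), cartilage (4 of 6, 0.36) and limb (7 of 10, 0.25) lists also leaned up. The neural (1 of 7, −0.495), endothelium (2 of 6, −0.33), muscle (1 of 9, −0.28) and head (3 of 9, −0.12) lists leaned down. The part of these lists in the *Hox* values was not tested. The male *Hox* median was 0.09 without male wild-type replicate 2 and without male KO replicate 1, and 0.03 without male wild-type replicate 2 and male KO replicate 3 together. In female MEFs 23 were above and 15 below, with a median of 0.06 beside 0 for all genes. The female median turned to −0.07 without female KO replicate 1 and to −0.03 without female wild-type replicate 1, and it was 0.13 without female wild-type replicate 2 or female KO replicate 2 and 0.15 without female KO replicate 3. By paralog number the male medians were 0.13, 0.22, 0.12 and 0.15 from anterior to posterior, and the female ones 0.06, 0.19, −0.04 and −0.02. Neighbouring *Hox* genes deviate together between libraries, so these rows are not independent of each other.

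The comparison of female with male MEFs carries the line, the embryo and the depth along with sex. *Hoxc8* was lower in the female MEFs. It had 7.32, 17.3 and 11.2 CPM in female wild-type and 31.4, 18.5 and 40.4 in male wild-type libraries, and 17.8, 9.29 and 13.9 in female KO and 29.4, 23.3 and 26.6 in male KO libraries. The groups overlapped in neither genotype, although female wild-type replicate 2 and male wild-type replicate 2 were close. In wild-type MEFs the log2 difference, female minus male, was −1.33 (SE 0.34, adjusted p = 0.00991, edgeR), the only call among 38 *Hox* rows, where 4.54% of all genes were called. The call sat at its limit: it was lost when any 1 of 9 of the 12 libraries was left out, and the difference was −1.08 without female wild-type replicate 1 and −1.06 without male wild-type replicate 3. With the replicate numbers as a block it was lost too (adjusted p = 0.0208, edgeR), and the adjusted p ran up to 0.0373 over the alternatives tried. In KO MEFs it was −0.96 (SE 0.34, adjusted p = 0.0420, edgeR), not a call, where 3.89% of all genes were called and 0 *Hox* rows.

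At an adjusted p under 0.05 with no limit on fold, 2 *Hox* rows differed between wild-type sexes and 3 between KO sexes, in both cases lower in females, where 38.7% of all genes did in each. Leaving out 1 library moved the first count between 1 and 5. The second moved between 0 (without female KO replicate 2, female KO replicate 3 or male KO replicate 1) and 7 (without female KO replicate 1), and the replicate block and DESeq2 each dropped *Hoxc8* from it. *Hoxc6* dropped out of the first without female wild-type replicate 1 or 3, female KO replicate 3, or male wild-type replicate 1 or 3. In wild-type MEFs the other was *Hoxc6*, a gene of the brachial level, with 10.9, 15.1 and 13.5 CPM in females and 21.1, 15.04 and 26.8 in males (log2 difference −0.67, SE 0.23, adjusted p = 0.0373, edgeR). Male wild-type replicate 2 lay among the female values. In KO MEFs the others were *Hoxc4* (−0.48, SE 0.16, adjusted p = 0.0346, edgeR) and *Hoxa2*, the selector gene of the second pharyngeal arch (−0.60, SE 0.20, adjusted p = 0.0354, edgeR). *Hoxc4* had 8.79, 5.73 and 5.51 CPM in female KO libraries and *Hoxa2* had 3.20, 2.53 and 2.14, against 4.33, 4.13 and 3.46 in male KO. Female KO replicate 1 lay above the lowest male KO library for *Hoxc4* but below it for *Hoxa2*. The groups did not overlap in 9 *Hox* rows in wild-type MEFs (51.9% of all genes) and in 3 in KO MEFs (50.2%).

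**Figure D5:**
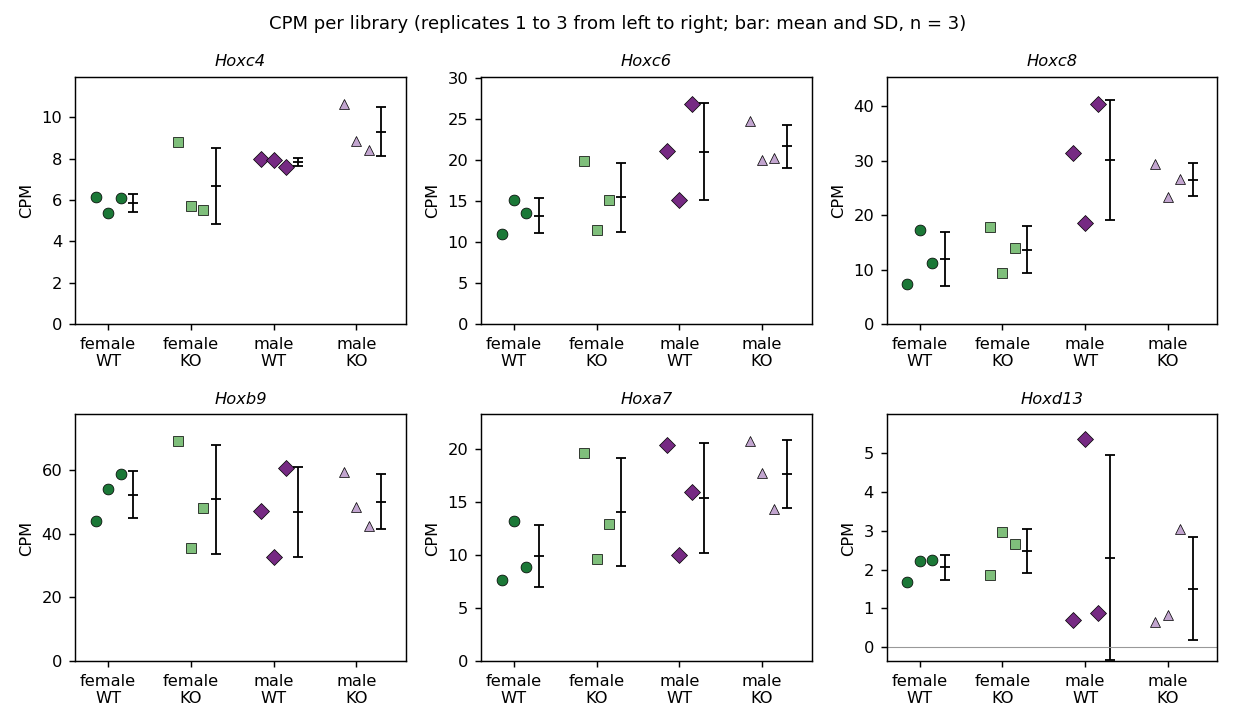
CPM of *Hoxc4*, *Hoxc6*, *Hoxc8*, *Hoxb9*, *Hoxa7* and *Hoxd13* in each library (points, replicates 1 to 3 from left to right) with the mean and SD of each group (bars, n = 3). *Hoxc8* is lower in all 6 female libraries than in the 6 male ones, and *Hoxd13* is high in 1 library of each male group.

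Marker lists of other cells also differed in this comparison, and their part in the *Hox* differences was not tested. Over all genes, 38.7% differed in either direction at an adjusted p under 0.05 in each genotype. The summed macrophage list ranged over 38.4 to 123 CPM in females and 7.06 to 15.9 in males, and 9 of 9 tested markers were higher in females at an adjusted p under 0.05 in both genotypes. The summed epithelium list was 23.4 to 71.1 in females and 6.41 to 16.5 in males, with 7 of 7 markers higher in wild-type and 2 of 7 in KO. The muscle list had 6 of 9 markers higher in wild-type females and 7 of 9 in KO females, while its sums overlapped, at 91.9 to 169.7 CPM in females and 83.1 to 148 in males. The neural list had 4 of 7 markers higher in wild-type females and 6 of 7 in KO females, and the endothelium list 4 of 6 and 1 of 6. The fibroblast list was 9895 to 11876 CPM in females and 11309 to 13336 in males.

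Genes that work with the *Hox* genes or lie among them were not called in the KO comparisons. All 9 TALE cofactors were tested and 0 were called. *Meis2* had 40.6 to 55.3 CPM and *Meis1* 18.4 to 26.1. Between the sexes 5 cofactors were lower in females at an adjusted p under 0.05 in wild-type and 2 in KO, where 38.7% of all genes differed in each. Of 15 upstream regulators in the table, such as the retinoic acid receptors and the chromatin factor *Mll1*, 10 were tested and 0 were called. The 32 other annotated rows within the clusters included 15 that were tested, with 0 calls in any comparison. Among them, *Hotair* (listed as *Gm16258*), a non-coding RNA between *Hoxc11* and *Hoxc12*, had 0.185 to 0.772 CPM, and *Hoxb3os* had 8.21 to 14.8. Of the 24 nearest protein-coding genes outside the clusters, 3 per side, 19 were tested and 0 were called. *Evx1* and *Evx2*, homeobox genes at the posterior ends of clusters A and D, had at most 0.0663 and 0.274 CPM.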

How the data were processed

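Total RNA of 12 MEF samples was made into TruSeq libraries and sequenced. Reads were, per the submitters' processing notes, processed on mm9 with Bowtie2 (version not given in the sources used here) and quantified with RSEM 1.2.29, and the authors deposited 1 table of expected counts per gene. These estimated counts were rounded to whole numbers for the tests. Of the 40 *Hox* rows, 19 held counts that were not whole, since RSEM splits reads shared between features. Strandedness is not stated, so overlapping genes (*Hoxa3* and 2700086A05Rik, *Hoxa11* and *Hoxa11as*, *Hoxd3* and *Hoxd4*, *Hoxb7* and *Hoxb8*) are uncertain.

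Counts were filtered with filterByExpr, scaled with TMM and fitted in edgeR 4.0.16 (R 4.3.3) with 1 mean per sex and genotype over all 12 libraries (8 residual degrees of freedom). This tested 15387 genes, among them 38 *Hox* rows. *Hoxb1* and *Hoxd1* failed the filter. The common biological coefficient of variation was 11.4%. The study's methods name DESeq2, and DESeq2 1.42.0 was run as an alternative. CPM used the TMM library sizes, and levels per length divided CPM by the merged exon length of GENCODE vM1. Log values used a pseudocount of 1. Depths ran from 42986516 to 65454660 counts. The 95% intervals of fold changes come from edgeR and include the spread between libraries, while the floors cover counting error only. The fit was tested on simulated data.

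All 39 *Hox* genes entered the counts, and values of 1 of them and of 1 cofactor are not reported here. Values per library were given for genes called in any comparison, the highest and lowest fold change in each KO comparison, the highest gene per length and the most posterior expressed gene of each cluster, the gene with the largest SD, and *Firre*. *Hoxc4*, *Hoxc6* and *Hoxa2* were named after their values were seen, as were the neighbour and spread examples. The members, the lists and the paralog classes were chosen with earlier results of these data known. Same-numbered male wild-type and KO libraries deviated together (r = 0.237, 0.413 and 0.495 over genes, each above 0.1), so the numbers may pair them. The female ones did not (−0.258, −0.132 and −0.183). Female KO replicate 1 also went with replicate 1 of male KO (r = 0.202) and of male wild-type (0.113). Libraries with different numbers were not compared in this way, so the pairing stays uncertain. Alternatives were the replicate block, other scalings, filters, pseudocounts and expression limits, DESeq2, and leaving out libraries.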

Additional observations from a re-analysis of the deposited data

How the results depend on the processing

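In the KO comparisons 0 *Hox* rows were called under every alternative run, the replicate block (over all libraries and within each sex), DESeq2 and leaving out each library included. In female against male wild-type MEFs the count of 1 became 0 with DESeq2 size factors, library size alone, the replicate block or only the 6 libraries compared, 0 to 1 over leaving out each library, and 2 at an adjusted p under 0.05 with no limit on fold or without male wild-type replicate 2 and male KO replicate 3. In KO MEFs the count of 0 became 3 with no limit on fold, 0 to 1 over leaving out each library, and 2 without the same pair. That pair, and female KO replicate 1 with it, was chosen after the *Hox* values were seen. The log2 fold change of *Hoxa13* in male MEFs reversed to −0.84 without male KO replicate 3 and to −0.35 without the pair, with a highest value of 1.00 without male wild-type replicate 2. At 5 CPM per kilobase of exon 1 *Hox* gene was expressed in each female group and 4 in each male group, and over leaving out each library 23 to 25 were at the usual limit. The median SD of *Hox* rows was 0.133 with a pseudocount of 5 and 0.181 without the 3 libraries, and the ratio of dispersion to trend was 1.52 without the pair and 1.29 without all 3. Where no value shows a cause, the cause was not tested. *Hoxb1* and *Hoxd1* had too few counts to be tested.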
